A study of Mus musculus with 2 samples.

Results

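The SR and hnRNP genes encode the principal sequence-specific regulators of splicing, and their genes are themselves alternatively spliced. Members were taken as the protein-coding genes of the GENCODE mouse annotation whose symbol starts with Srsf and a digit or with Hnrnp, which gave 31 of the 43346 Ensembl genes listed, 11 SRSF and 20 HNRNP. They carried 212 of the 103639 transcripts listed. The tissue was the sigmoid colon, the part of the large intestine that leads into the rectum, from 1 female C57BL/6J mouse aged 10 weeks, and its polyadenylated RNA was sequenced. The labels describe 2 technical libraries of this 1 mouse, named here by technical replicate number. Library 2 dates from 2015 and was left out of the study's first publication, to which library 1 belongs. No year is recorded here for library 1. There was no second condition or animal, so every comparison is between libraries, each ± is an SD over n = 2 technical libraries, and no p-value covers differences between mice.

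SR proteins carry RNA recognition motifs and a domain rich in arginine and serine. They bind enhancers in exons, recruit the splicing machinery and in several cases shuttle with the messenger RNA to the cytoplasm. The hnRNP proteins coat nascent transcripts through RNA recognition or KH domains and often oppose SR proteins at exons. Many SR and hnRNP genes limit their own output through an alternative exon, often called a poison exon, or through a retained intron. Inclusion of a poison exon puts a stop codon upstream of later exon junctions, and such a transcript is a substrate of nonsense-mediated decay (NMD), so it is usually seen as a minor form.

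Exons that put a stop codon early are shown first, since several of the results turn on the share of the transcripts that hold them. They come from NMD transcripts with a mean share of 5% or more of their gene. Only exons that lie between exons of the gene's leading protein-coding transcript and overlap none of them are shown. Hnrnph3-204, Srsf1-204 and Hnrnpdl-205 also reached 5%, but their exon with the stop codon overlaps an exon of that transcript. In Hnrnpd-208, which reached 5% too, it lies outside the span of that transcript. Each sequence is the part of the exon through the stop codon, 5′ to 3′ on the gene's strand, with the stop codon in capitals, read from the GENCODE M21 transcripts on GRCm38, the assembly also called mm10.
Srsf3-201, chr17:29039454-29039487, plus strand: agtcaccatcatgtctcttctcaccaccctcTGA
Srsf6-201, chr2:162932815-162932966, plus strand: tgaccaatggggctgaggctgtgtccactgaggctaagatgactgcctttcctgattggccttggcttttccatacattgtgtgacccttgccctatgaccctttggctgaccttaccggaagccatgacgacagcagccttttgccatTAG
Srsf4-203, chr4:131884276-131884390, plus strand: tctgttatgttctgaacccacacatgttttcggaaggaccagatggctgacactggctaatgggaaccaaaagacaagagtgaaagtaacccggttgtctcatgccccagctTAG
Hnrnpll-203, chr17:80044976-80045022, minus strand: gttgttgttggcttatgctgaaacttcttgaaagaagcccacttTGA
The whole exon spans 456 bases in Srsf3, 268 in Srsf6, 207 in Srsf4-203 and 83 in Hnrnpll. From the stop codon to the last exon junction the spliced transcript runs for 548 bases in Srsf3-201, 534 in Srsf6-201, 617 in Srsf4-203 and 807 in Hnrnpll-203. A further Srsf4 decay transcript, Srsf4-204, begins inside the same Srsf4 exon and ends its reading frame at the same stop codon. A partial protein-coding transcript, Srsf6-202, also holds the Srsf6 exon and was listed at 0 TPM in both libraries. The deposited length of Srsf3-201 was 1919 bases, against 2594 bases in the annotation used here. Where the versions differ was not checked, so it is not shown that the deposited form holds the exon printed above.

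The libraries held 20681574 expected counts (library 2) and 25843064 (library 1). Mitochondrially encoded genes took 5.588% of the counts of library 2 and 24.05% of those of library 1, and nuclear protein-coding genes took 75.34% of the TPM (a level corrected for transcript length and library total) of library 2 and 31.33% of that of library 1. TPM values of the members therefore share a ceiling that differed between the libraries. The tissue label was checked on marker genes. Their sums are in TPM, while higher and lower refer to the test of scaled counts given below. By that test 37.0% of all genes were higher in library 2 and 28.2% lower. Epithelial markers (Krt8, Epcam and 4 others) summed to 7234 TPM in library 2 and 903 TPM in library 1, with 3 of 6 higher in library 2. Smooth muscle markers summed to 4334 TPM in library 2 and 273 TPM in library 1, with 5 of 5 higher, and red blood cell markers to 1609 TPM in library 2 and 48.4 TPM in library 1, with 2 of 2 higher. Immune markers summed to 1252 TPM in library 2 and 528 TPM in library 1 (2 of 5 higher, 2 lower), and endothelial markers to 35.6 TPM in library 2 and 5.75 TPM in library 1 (2 of 2 higher). Enteric neuron markers summed to 59.2 TPM in library 2 and 78.7 TPM in library 1 (0 of 3 higher, 2 lower). In TPM rescaled over nuclear protein-coding genes, epithelial markers summed to 9601 in library 2 and 2882 in library 1. In the same order the sums were 5752 and 871 for smooth muscle and 2136 and 154 for red blood cells. They were 1661 and 1685 for immune, 47.3 and 18.4 for endothelial and 78.5 and 251 for enteric neuron markers. These markers moved with the library that the members are compared across, and their part in the members' differences was not tested. The median GC content was 54.6% for the epithelial, 52.8% for the smooth muscle and 54.3% for the red blood cell markers. It was 48.3% for the immune, 51.2% for the endothelial and 42.2% for the enteric neuron markers, and its part was not tested. Both libraries come from 1 mouse, so the marker differences are not read as differences in cells. In a bulk tissue, cell number and RNA per cell cannot be told apart.

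The SRSF genes were well measured in both libraries, with 9 of 11 at 10 TPM or more in each. They summed to 1407 TPM in library 2 and 1572 TPM in library 1 (1489 ± 117), and, in TPM rescaled over nuclear protein-coding genes alone, to 1867 in library 2 and 5016 in library 1. Srsf5, an SR protein with a pair of RNA recognition motifs (ENSMUSG00000021134.13, chromosome 12, 80945504 to 80950507, plus strand), was at 418 TPM in library 2 and 259 TPM in library 1 (339 ± 112). Srsf1, the founding member, which acts in splicing, export and translation (ENSMUSG00000018379.13, chromosome 11, 88047373 to 88053755, plus strand), was at 161 TPM in library 2 and 317 TPM in library 1 (239 ± 110.0). Srsf5 had the highest level of the family in library 2 and Srsf1 in library 1, so the order of these genes depended on the library. Srsf2, a nuclear SR protein that marks speckles (ENSMUSG00000034120.14, chromosome 11, 116849901 to 116853094, minus strand), was at 204 TPM in library 2 and 254 TPM in library 1 (229 ± 35.1). Srsf3, the smallest SR protein and an adaptor for messenger RNA export (ENSMUSG00000071172.8, chromosome 17, 29032628 to 29043373, plus strand), was at 158 TPM in library 2 and 242 TPM in library 1 (199.9 ± 59.4). Srsf11 (ENSMUSG00000055436.14, chromosome 3, 158010473 to 158036639, minus strand) was at 154 TPM in library 2 and 211 TPM in library 1 (183 ± 40.3). Between Srsf1, Srsf2, Srsf3 and Srsf11 the means lay closer together than the SD of Srsf1. Srsf6, a relative of Srsf5 and Srsf4 (ENSMUSG00000016921.10, chromosome 2, 162931528 to 162937121, plus strand), was at 122 TPM in library 2 and 101 TPM in library 1 (112 ± 14.6). The others with at least 10 TPM in both libraries, Srsf10, Srsf7 and Srsf9, had means of 73.6, 57.9 and 28.9 TPM. Srsf4 (ENSMUSG00000028911.12, chromosome 4, 131873617 to 131901706, plus strand) was at 48.3 TPM in library 2 and 7.35 TPM in library 1 (27.8 ± 29.0). Srsf12 was the lowest member, at 0.56 TPM from 17 counts in library 2 and 0.33 TPM from 22 counts in library 1.

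All 20 HNRNP genes were at 10 TPM or more in both libraries, and they summed to 2990 TPM in library 2 and 3479 TPM in library 1 (3235 ± 346). Over nuclear protein-coding genes alone the sums were 3969 in library 2 and 11104 in library 1. Under that scaling 28 of the 31 members were lower in library 2 and 3 were higher (Srsf4, Srsf9 and Hnrnpul1), against 17 lower and 14 higher in TPM. Hnrnpk, a KH-domain protein that binds runs of C (ENSMUSG00000021546.13, chromosome 13, 58391142 to 58403343, minus strand), was at 351 TPM in library 2 and 629 TPM in library 1 (490.1 ± 197). The A/B proteins, which bind splicing silencers, followed. Hnrnpa2b1 (ENSMUSG00000004980.12, chromosome 6, 51460932 to 51469894, minus strand) was at 365 TPM in library 2 and 394 TPM in library 1 (379 ± 20.7). Hnrnpa3 (ENSMUSG00000059005.9, chromosome 2, 75659261 to 75669407, plus strand) was at 298 TPM in library 2 and 413 TPM in library 1 (355 ± 80.9). Hnrnpa1 (ENSMUSG00000046434.11, chromosome 15, 103240432 to 103246692, plus strand) was at 197 TPM in library 2 and 139.6 TPM in library 1 (168 ± 40.7). Hnrnpa2b1 had the closest pair of the A/B genes. Of the proteins that bind runs of G, Hnrnph1 (ENSMUSG00000007850.12, chromosome 11, 50376990 to 50386528, plus strand) was at 229 TPM in library 2 and 391 TPM in library 1 (310.2 ± 115), and Hnrnpf (ENSMUSG00000042079.9, chromosome 6, 117900324 to 117925622, plus strand) was at 334 TPM in library 2 and 199.9 TPM in library 1 (267 ± 94.8). These G-run binders therefore stood in opposite order in the libraries. Hnrnpd, known as AUF1 and for binding AU-rich elements (ENSMUSG00000000568.11, chromosome 5, 99955935 to 99978938, minus strand), was at 163 TPM in library 2 and 251 TPM in library 1 (207 ± 62.2). Its relative Hnrnpdl (ENSMUSG00000029328.11, chromosome 5, 100033577 to 100039664, minus strand) was at 165 TPM in library 2 and 217 TPM in library 1 (191 ± 36.8). The pair with the widest gap by ratio was that of Hnrnpul1, a protein related to Hnrnpu (ENSMUSG00000040725.9, chromosome 7, 25721165 to 25754757, minus strand), at 62.5 TPM in library 2 and 13.0 TPM in library 1. Hnrnpu, a scaffold protein of the nuclear matrix (ENSMUSG00000039630.9, chromosome 1, 178321108 to 178337797, minus strand), differed the other way, with 47.8 TPM in library 2 and 198.7 TPM in library 1 (123 ± 107). The other 10 HNRNP genes had means from 38.5 TPM (Hnrnpll) to 159 TPM (Hnrnpl).

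**Figure D1:**
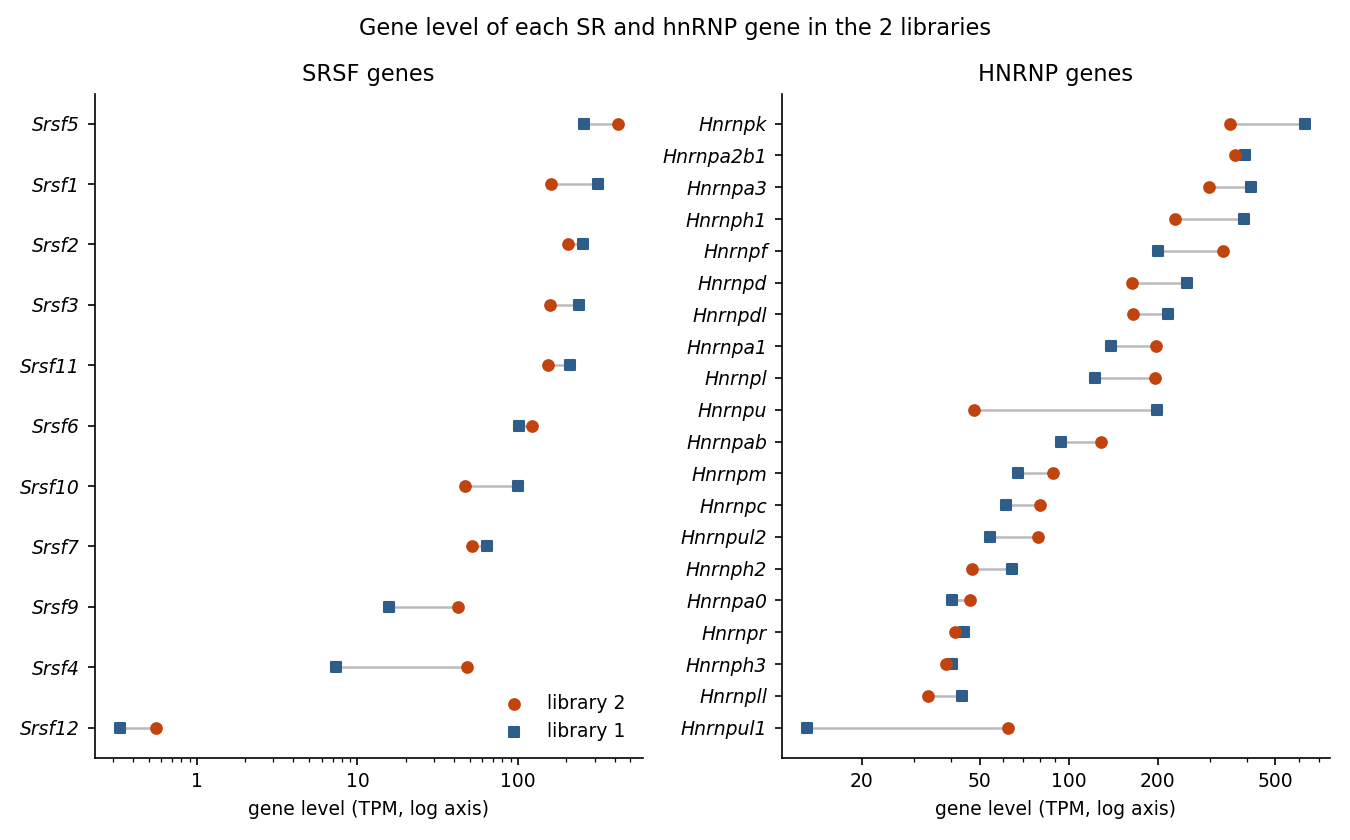
Gene level in TPM (log axis) of the 11 SRSF genes (left) and 20 HNRNP genes (right), with library 2 as circles and library 1 as squares; each grey line joins the 2 technical libraries of 1 gene. Of the 31 genes, 17 had a lower and 14 a higher TPM in library 2 (28 and 3 in TPM over nuclear protein-coding genes), and Hnrnpu, Srsf4 and Hnrnpul1 had the widest gaps.

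By counts scaled to effective library size (TMM), most members were lower in library 2. Of the 31 members, 18 passed as lower and 2 as higher where passing took a difference of 2-fold or more and an adjusted p under 0.05 in a two-sided exact binomial test adjusted by Benjamini-Hochberg over the 15711 genes with a mean count of at least 10. The test compares these libraries and not conditions. Of all genes tested, 28.2% passed as lower and 37.0% as higher. Members are abundant genes, and of the 4085 nuclear protein-coding genes with a mean count of at least 1000, 42.2% passed as lower and 23.3% as higher. Among the SRSF genes 8 were lower, 1 was higher and 2 did not pass, and among the HNRNP genes 10 were lower, 1 was higher and 9 did not pass. Of the 11 members that did not pass, 10 had an adjusted p under 0.05 but differed by less than 2-fold. The median log2 ratio of library 2 over library 1 was -1.48 over the SRSF genes and -1.12 over the HNRNP genes, against 0.12 over all genes tested and -0.71 over the abundant nuclear ones. The median of the members less that of all genes was -1.39 on the log2 scale, with 27 of 31 members below the median of all genes. This difference cannot change with DESeq2 size factors, total counts, TMM over all genes or another fold threshold, so those settings say nothing of it. It was -1.28 by TPM and -1.41 by TPM over nuclear protein-coding genes. At minimum counts of 0 and 50 it was -1.44. It was -1.56 with the length trend off and -0.22 with the GC trend off.

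The lowest ratios of the SRSF genes were those of Srsf10 and Srsf1. Srsf10, an SR protein that represses splicing when dephosphorylated (ENSMUSG00000028676.13, chromosome 4, 135855747 to 135869908, plus strand), had 1693 expected counts in library 2 and 6356 in library 1, a log2 ratio of -2.34 (SE 0.04). Srsf1 had 4473 counts in library 2 and 15241 in library 1, a log2 ratio of -2.20 (SE 0.02). Both differences were many times their counting error. Srsf4 was the SRSF gene that passed as higher, with 1334 counts in library 2 and 307 in library 1, a log2 ratio of 1.69 (SE 0.09). Srsf9 (ENSMUSG00000029538.9, chromosome 5, 115327177 to 115333080, plus strand) had 412 counts in library 2 and 204 in library 1, a log2 ratio of 0.58 (SE 0.12), and did not reach 2-fold. Srsf5 had 9240 counts in library 2 and 14006 in library 1 and passed as lower by counts, a log2 ratio of -1.03 (SE 0.02), although its TPM was higher in library 2. Among the HNRNP genes, Hnrnpu had 3725 counts in library 2 and 14283 in library 1, a log2 ratio of -2.37 (SE 0.03), and Hnrnph1 had 5205 counts in library 2 and 13954 in library 1, a log2 ratio of -1.85 (SE 0.02). Hnrnpul1 was the HNRNP gene that passed as higher, with 2915 counts in library 2 and 992 in library 1, a log2 ratio of 1.13 (SE 0.05). Hnrnpl, which binds CA repeats (ENSMUSG00000015165.12, chromosome 7, 28808541 to 28822266, plus strand), had 4194 counts in library 2 and 2000.0 in library 1, a log2 ratio of 0.64 (SE 0.04), and did not reach 2-fold. Each SE covers counting only.

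The ratio between the libraries followed the GC content of the genes. Over the 15654 genes with a value, the log2 ratio and the GC content of a gene's transcripts had a Spearman rho of 0.90, and over the 31 members it was 0.75. The genes share the same 2 libraries, so these are descriptions. The members were GC-poor, with a median of 43.3% for the SRSF genes and 44.5% for the HNRNP genes, against 49.6% for all genes. Abundant genes were GC-poorer too, with 47.3% over the nuclear protein-coding genes with a mean count of at least 1000. The members higher in library 2, Srsf4 and Hnrnpul1, had 55.3 and 53.5% GC. With the trend of the ratio on GC taken off, 3 members passed as lower and 0 as higher, where 11.1% of all genes passed as lower and 12.4% as higher. The members' median then lay -0.22 from that of all genes, with 20 of 31 below it. The 3 that passed, named after their values were seen, were Hnrnpa0, Hnrnpab and Hnrnpd. Hnrnpa0, an intronless A/B gene of 55.4% GC, had 1667 counts in library 2 and 2417 in library 1, and a log2 ratio of -0.97 before and -3.57 after the trend was taken off. Hnrnpab (52.8% GC) had 3150 counts in library 2 and 3935 in library 1, and a ratio of -0.75 before and -2.04 after. Hnrnpd (46.8% GC) had 2046 counts in library 2 and 5225 in library 1, and a ratio of -1.78 before and -1.09 after. These genes lay below most genes of their GC content. What made the ratio follow GC content was not tested.

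**Figure D2:**
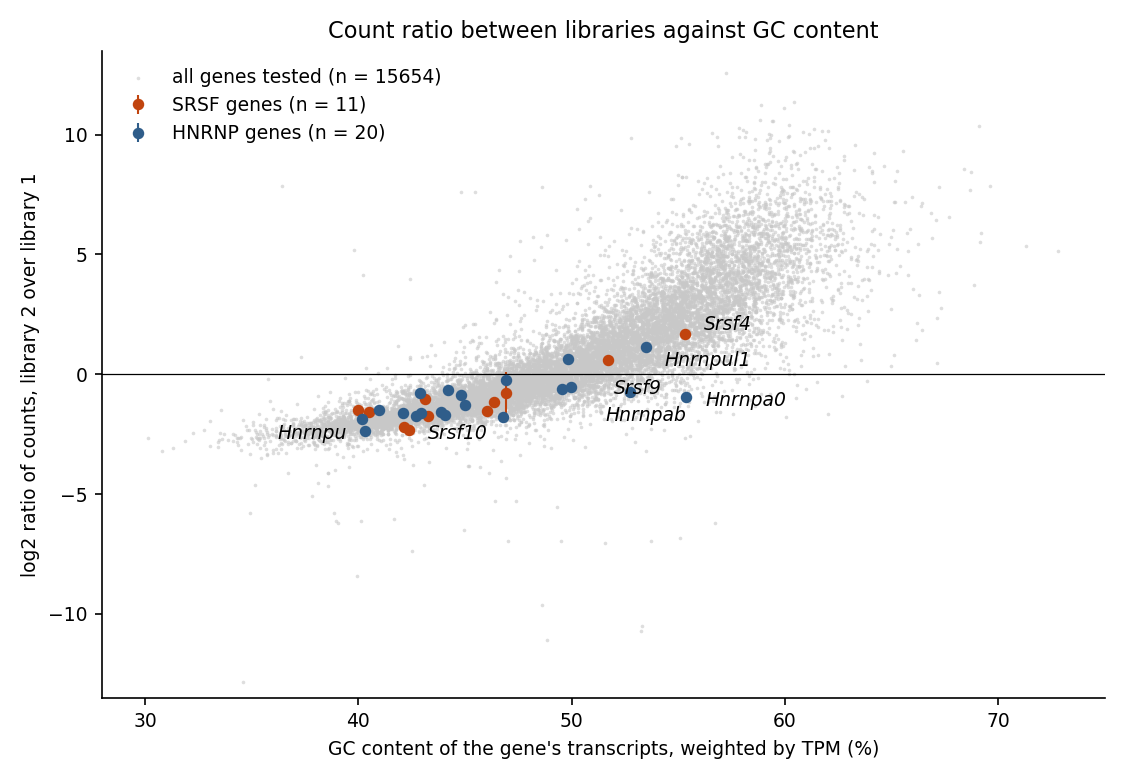
Log2 ratio of counts, library 2 over library 1, against the GC content of each gene's transcripts in percent, for all genes tested (grey) and for the SRSF and HNRNP genes; vertical lines on the members are 95% counting intervals. Members sit mostly at low GC content and below 0, and Srsf4 and Hnrnpul1, at 55.3 and 53.5% GC, sit above 0 while Hnrnpa0, at 55.4%, sits below.

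By TPM, transcripts labelled protein-coding held the smaller part of the level assigned to the SRSF genes. Summed over the family, they took 42.1% of the TPM in library 2 and 38.2% in library 1. Transcripts labelled retained intron, which keep intron sequence, took 37.7% in library 2 and 57.4% in library 1. Transcripts labelled NMD took 9.59% in library 2 and 2.74% in library 1, and processed transcripts, which have no annotated reading frame, took 10.7% in library 2 and 1.71% in library 1. In the HNRNP genes protein-coding transcripts took 81.4% in library 2 and 64.0% in library 1, and retained intron transcripts took 8.88% in library 2 and 17.7% in library 1. Their NMD transcripts took 3.23% in library 2 and 2.30% in library 1, and their processed transcripts 6.42% in library 2 and 14.8% in library 1. Over all nuclear protein-coding genes with at least 1 TPM in both libraries, protein-coding transcripts took 90.6% in library 2 and 82.2% in library 1, retained intron transcripts 4.42% in library 2 and 7.18% in library 1, and NMD transcripts 1.53% in library 2 and 2.83% in library 1. Retained intron transcripts thus took a smaller share in library 2 in both families and over all genes. NMD transcripts took a larger share of the summed TPM in library 2 in both families and a smaller one over all genes, but gene by gene the median NMD share over all genes was also larger in library 2, 2.53% against 0.72% in library 1. Shares were compared gene by gene in the 27 members with at least 2 listed transcripts and at least 1 TPM in both libraries (9 SRSF, 18 HNRNP). Srsf7, Hnrnpa0 and Hnrnpul2 have 1 listed transcript each and Srsf12 was below 1 TPM. The median share without a protein-coding label was 56.0% in library 2 and 53.7% in library 1 over the SRSF genes, and 2.71% in library 2 and 9.89% in library 1 over the HNRNP genes. It was 5.18% in library 2 and 4.37% in library 1 over the 7519 genes chosen the same way. By expected counts the shares of short transcripts are smaller, since TPM divides by length.

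**Figure D3:**
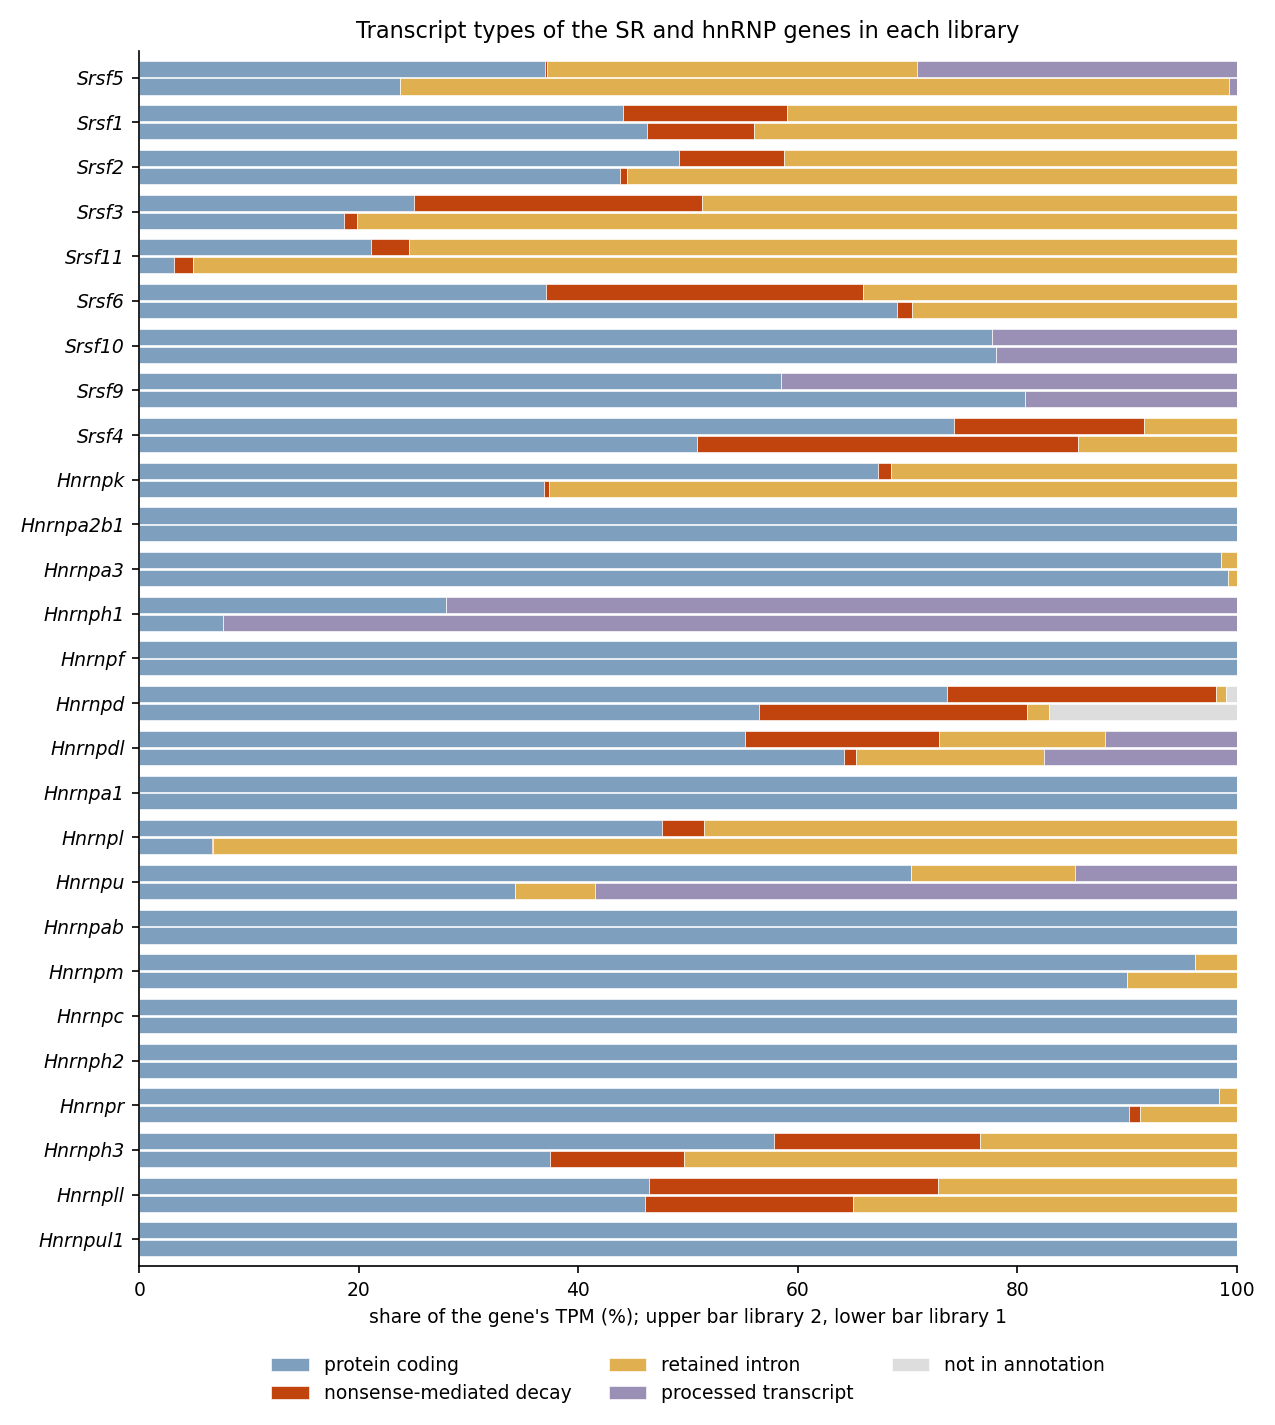
Share of each gene's TPM, in percent, in transcripts of each annotated type for the 27 SRSF and HNRNP genes with 2 or more transcripts, the upper bar of each pair being library 2 and the lower bar library 1. Retained intron transcripts fill more of the lower bar in Srsf5, Srsf3, Hnrnpk and Hnrnpl, and NMD transcripts fill more of the upper bar in Srsf6, Srsf3 and Hnrnpdl.

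NMD transcripts were measured in 14 members, and their share was higher in library 2 in 12 of them and lower in 2, where 45.3% of the 2013 genes with such a transcript were higher and 32.2% lower. Among the 12, Hnrnpd differed by 0.05 points and Srsf5 by 0.23. Where only genes with at least 5 transcripts and a mean count of at least 1000 were taken, 10 of 11 members were higher and 1 lower. Of the 675 genes chosen that way, 328 were higher and 231 lower. The NMD share was higher by 10 percentage points or more in 3 members (Srsf6, Srsf3 and Hnrnpdl) and lower by as much in 1 (Srsf4). Of the same 2013 genes, 13.6% were 10 points or more higher and 16.7% as much lower. With so few members the counts past 10 points are near these shares and are not read as a result about the members. Srsf6-201, which carries the Srsf6 exon shown above, took 28.9% of Srsf6 in library 2 and 1.39% in library 1. It stood at 35.25 TPM from 753 counts in library 2, with a deposited interval of 28.5 to 38.1 TPM, and at 1.41 TPM from 50.1 counts in library 1, with an interval of 0.914 to 1.92 TPM. The intervals did not overlap. Srsf3-201, which holds the Srsf3 exon in the annotation used here, took 26.2% of Srsf3 in library 2 and 1.23% in library 1. It stood at 41.4 TPM (35.0 to 43.1) in library 2 and 2.99 TPM (2.08 to 3.99) in library 1. Srsf3-202, the coding form of Srsf3, took 25.0% in library 2 and 18.6% in library 1, so that NMD and coding forms were of similar level in library 2 and not in library 1. Hnrnpdl-205 took 13.9% of Hnrnpdl in library 2 and 1.13% in library 1. It stood at 23.0 TPM (18.2 to 24.9) in library 2 and 2.46 TPM (1.35 to 3.78) in library 1.

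In 4 other genes the larger share in library 2 came with smaller differences. Hnrnpll, a regulator of CD45 splicing in T cells, had 26.3% of its TPM in Hnrnpll-203 in library 2 and 18.9% in library 1. Hnrnph3-204 took 18.8% of Hnrnph3 in library 2 and 12.2% in library 1, and Srsf1-204 took 15.0% of Srsf1 in library 2 and 9.69% in library 1. The NMD transcripts of Srsf2 together took 9.55% in library 2 and 0.68% in library 1. The library 2 value is uncertain. Its part from Srsf2-202 (4.24%) rests on 8.65 TPM, outside the deposited interval of 0.000126 to 7.84 TPM. The coding Srsf2-206 stood at 0.14 TPM in library 2, with an interval of 0.125 to 8.81 TPM. Srsf4 went the other way. Srsf4-204 took 12.6% of Srsf4 in library 2 and 25.3% in library 1, and Srsf4-203 took 4.77% in library 2 and 9.42% in library 1. These rested on few reads. Srsf4-204 had 69.9 counts in library 2 and 35.5 in library 1, and Srsf4-203 had 22.3 in library 2 and 11.05 in library 1. Hnrnpd held a similar NMD share in both libraries, 24.5% in library 2 and 24.4% in library 1, but in different transcripts. Hnrnpd-208 took 2.27% in library 2 and 22.3% in library 1, and the other NMD transcripts made up the rest.

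The GC content of the NMD transcripts was set beside these shares. They were richer in GC than the gene's other transcripts in 11 of the 14 members. In 11 of the 14 the share was higher in library 2 where the NMD transcripts were the GC-richer ones or lower where they were the GC-poorer ones, among them all 8 whose share differed by 5 points or more. The exceptions were Hnrnpl and Hnrnpd, with GC-poorer NMD transcripts and changes of 3.63 and 0.05 points, and Hnrnpr, with GC-richer ones and a change of -0.94 points. In Srsf6 the NMD transcript had 51.7% GC and the other transcripts 45.3%, and in Hnrnpdl the values were 50.1 and 42.3%. Srsf4, the gene that went the other way, had 50.8% GC in its NMD transcripts and 56.4% in the others. In Srsf3 the difference was small, at 42.6 against 40.2%. In Srsf2 the values were 49.8 and 45.9%, but they rested on the uncertain Srsf2-202 (59.0% GC), as Srsf2-204 had 41.6%. These counts were not taken over all genes. With NMD transcripts GC-richer in 11 of 14 members and their share higher in 12 of 14, many matches would arise without a link. The count of matches is therefore not read as a result about the members, and the part of GC content in the shares was not tested.

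**Figure D4:**
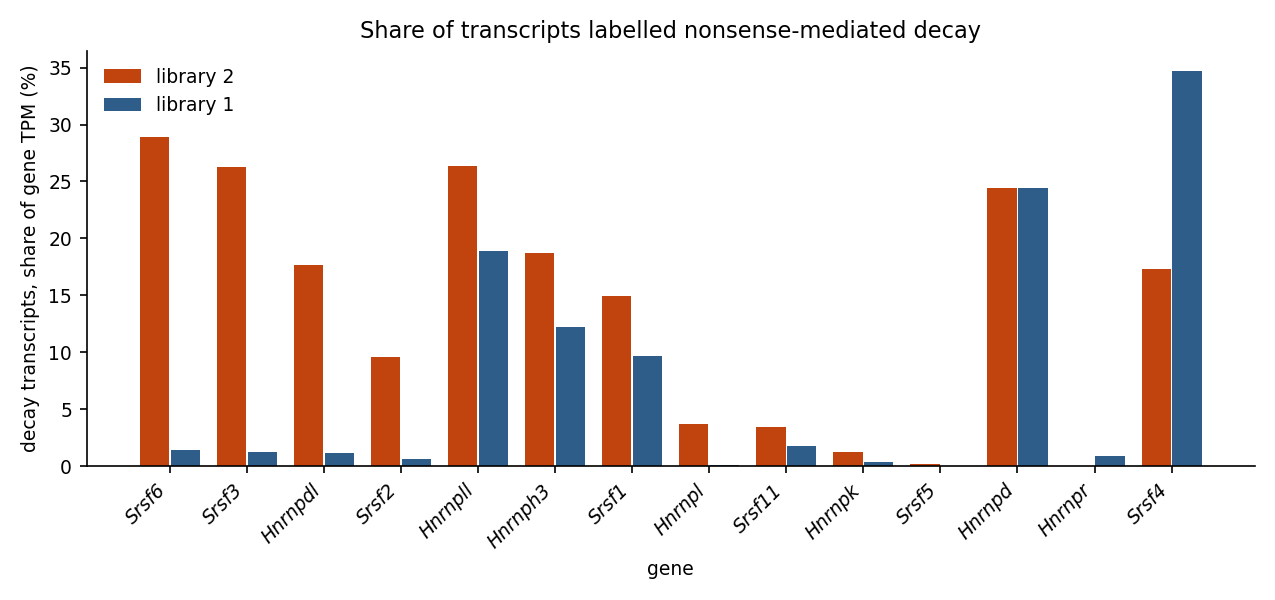
Share of the gene's TPM, in percent, in transcripts labelled nonsense-mediated decay for the 14 SRSF and HNRNP genes with such a transcript, library 2 left and library 1 right in each pair, ordered by the difference. Srsf6 and Srsf3 are at 28.9 and 26.2% in library 2 and below 2% in library 1, and Srsf4 is lower in library 2.

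Retained intron transcripts took a smaller share in library 2 in most members that have one. Of 17 members with such a transcript, 7 had a share 10 points or more lower in library 2 and 0 had one as much higher, where 25.6% of the 4195 genes with such a transcript were 10 points or more lower and 9.37% as much higher. Srsf5-212, of 2720 bases, took 32.0% of Srsf5 in library 2 and 72.0% in library 1. By counts the same transcript took 52.9% of Srsf5 in library 2 and 81.2% in library 1. Srsf3-205, of 910 bases, took 35.1% of Srsf3 in library 2 and 62.5% in library 1, but 14.0% of its counts in library 2 and 28.4% in library 1. Hnrnpl-210, of 672 bases, took 4.31% of Hnrnpl in library 2 and 71.1% in library 1, on 59.6 counts in library 2 and 1019 in library 1. This transcript was the leading form of Hnrnpl in library 1 and a minor one in library 2. Of the coding forms, Hnrnpl-201 took 16.3% in library 2 and 6.60% in library 1, and Hnrnpl-202 took 21.8% in library 2 and was listed at 0 in library 1. Hnrnpk summed to 31.5% retained intron in library 2 and 62.7% in library 1, and Hnrnph3 to 23.4% in library 2 and 50.3% in library 1. Srsf11 summed to 75.4% in library 2 and 95.1% in library 1, and Srsf2 to 41.3% in library 2 and 55.5% in library 1. The change in these 7 genes was between -14.3 points (Srsf2) and -44.7 points (Hnrnpl). Srsf1 changed little, with 41.0% in library 2 and 44.0% in library 1. Srsf6, Hnrnpu and Hnrnpa3 were higher in library 2 by less than 10 points, Srsf6 with 34.1% in library 2 and 29.6% in library 1. Retained intron transcripts were GC-poorer than the protein-coding ones in 12 of the 14 genes with an NMD transcript, which was not counted over all genes. The medians over all retained intron transcripts were 41.8% in SRSF and HNRNP genes alike.

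The shift of a gene's transcript shares was taken as the summed change of the transcripts that gained. It reached 20 points in 18 of the 27 members, against 58.8% of the 7519 genes chosen the same way. Where only genes with at least 5 transcripts and a mean count of at least 1000 were taken, it was reached in 13 of 18 members, against 68.8% of 1843 genes. The leading transcript differed between the libraries in 15 of 27 members, against 36.6%, and in 11 of 18, against 41.9%. By expected counts in place of TPM it differed in 9 of 27 members, against 28.9% of all genes so chosen, and in 7 of 18, against 31.5%. The median shift was 32.0 points over the members and 27.3 over all genes so chosen, and 36.8 and 33.9 in the genes of many transcripts and counts. The count of members past 20 points is near the background in both comparisons and is not read as a result about them.

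In some genes the share differed between coding transcripts, and in others between a coding transcript and one without a reading frame. The widest shift was that of Srsf9, at 71.6 points. Srsf9-201, of 1162 bases, took 54.1% in library 2 and 4.82% in library 1, and Srsf9-204, of 767 bases, took 4.30% in library 2 and 75.9% in library 1. Both are labelled protein-coding, with 56.2 and 49.2% GC. Hnrnpf shifted by 61.4 points between coding transcripts, with Hnrnpf-201 at 34.2% in library 2 and 4.63% in library 1 and Hnrnpf-210 at 27.4% in library 2 and 70.8% in library 1. The processed transcript Srsf9-202 took 41.6% of Srsf9 in library 2 and 19.3% in library 1. The leading coding transcript thus differed between the libraries in both genes. Hnrnpa3-204 took 42.6% of Hnrnpa3 in library 2 and was listed at 0 in library 1, while Hnrnpa3-202 took 11.0% in library 2 and 55.6% in library 1. Hnrnpa2b1 had more of a shorter coding form in library 2, with Hnrnpa2b1-202 (1662 bases) at 48.3% in library 2 and 15.0% in library 1 and Hnrnpa2b1-203 (4086 bases) at 35.5% in library 2 and 67.6% in library 1. In Hnrnpu the coding Hnrnpu-201, of 7640 bases, took 70.3% in library 2 and 34.2% in library 1, and the processed transcript Hnrnpu-203, of 869 bases, took 14.7% in library 2 and 58.5% in library 1. By counts Hnrnpu-203 held 1.88% of the gene in library 2 and 13.3% in library 1, so its share of TPM rested on its short length. Hnrnph1 held most of its TPM in processed transcripts in both libraries, 72.0% in library 2 and 92.4% in library 1. Its coding form Hnrnph1-201 took 21.9% in library 2 and was listed at 0 in library 1. Like Hnrnpu, it had the larger coding share in library 2. Hnrnpr differed between coding forms, with Hnrnpr-204 at 41.6% in library 2 and 5.01% in library 1 and Hnrnpr-202 at 39.1% in library 2 and 50.6% in library 1. In Hnrnph2 the coding Hnrnph2-203 took 69.8% in library 2 and 37.8% in library 1, and in Hnrnpm Hnrnpm-201 took 70.0% in library 2 and 49.5% in library 1. The shares of 6 members shifted by less than 10 points, namely Hnrnpc (0.59), Hnrnpul1 (3.18), Hnrnpab (4.94), Hnrnpa1 (7.19), Srsf1 (9.82) and Hnrnpll (9.90). Hnrnpc-201 took 97.2% of Hnrnpc in library 2 and 96.7% in library 1. Over the 91 transcripts that held 10% or more of a member in either library, the change in share had a Spearman rho of 0.42 with transcript GC content and 0.01 with length. The transcripts come from 28 genes and share these 2 libraries.

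Genes that work with the SR and hnRNP proteins did not all move with them. Each list held genes that passed in both directions. So did all genes tested, with 37.0% higher and 28.2% lower in library 2. With 8 to 12 genes a list, the counts are not read as a result about the lists. Of 11 SR-related genes, 4 passed as higher in library 2, 3 as lower and 4 did not pass. Tra2b, an SR-like splicing activator, had 2234 counts in library 2 and 5719 in library 1, a log2 ratio of -1.79, and U2af2, the large subunit of the factor that binds the 3′ splice site, had 2631 in library 2 and 130.0 in library 1, a log2 ratio of 3.90. Their GC contents were 41.9 and 55.7%. Of 8 genes for SR protein kinases and the SR importer, 3 were higher, 3 lower and 2 did not pass. Clk1, a kinase of SR proteins, had 5480 counts in library 2 and 15645 in library 1, a log2 ratio of -1.94 at 39.7% GC, and its relative Clk3 had 1188 in library 2 and 269 in library 1, a log2 ratio of 1.71 at 58.8% GC. Of 12 hnRNP proteins under other symbols, 3 were higher, 7 lower and 2 did not pass, with Ptbp1 at 4927 counts in library 2 and 1079 in library 1, a log2 ratio of 1.76 and its relative Ptbp3 at 6588 in library 2 and 22756 in library 1, a log2 ratio of -2.22. Of 10 NMD factors, 5 were higher, 3 lower and 2 did not pass. Upf1, the helicase of the pathway, was at 31.5 TPM in library 2 and 1.2 TPM in library 1, and Upf2 was at 15.5 TPM in library 2 and 21.6 TPM in library 1. GC content was 54.4% in Ptbp1, 39.1% in Ptbp3, 57.9% in Upf1 and 43.3% in Upf2. The median log2 ratios of the 4 lists were 0.79, -0.45, -1.14 and 0.84, against 0.12 over all genes.

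Several members share sequence with other genes, and their values are uncertain to that extent. Of the 31-base words of a member's transcripts, other genes held 38.5% in Hnrnpf, 29.3% in Hnrnpa1, 28.1% in Hnrnpa3, 21.9% in Hnrnph2 and 17.1% in Hnrnpk, and between 10.8 and 14.1% in Srsf10, Hnrnpc, Srsf3, Hnrnpm and Srsf5. In the other 21 members the share was 5.57% or less, and it was 0 in Srsf1, Srsf4, Srsf6, Srsf9, Hnrnpa0 and Hnrnpu. The exons of 11 members overlap an antisense gene in the annotation, among them Srsf1, Srsf2, Srsf4, Hnrnpk and Hnrnpu. No source used here states whether counting used strand. If it did not, reads in the overlapping parts of those exons could come from the member or from its antisense partner.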

How the data were processed

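Polyadenylated RNA was measured in 2 technical libraries of 1 mouse. Per the text files deposited beside the tables, the authors used mm10 and GENCODE M4; no source used here names the aligner, the quantifier or its strand setting. Per the file headers, the authors' tables hold expected counts (estimated counts shared among transcripts by a model), TPM with a posterior mean and interval, FPKM, and each transcript's percent share of its gene. Only Ensembl entries were used; the other 26345 entries held 1 count in library 2 and 0 in library 1.

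Transcript types, positions and sequences were read from GENCODE M21 (GRCm38), which held 211 of the members' 212 transcripts, 192 of them at the deposited length. GC content per gene averages its transcripts by their TPM in both libraries. Expected counts were rounded for tests. With 1 library on each side edgeR's quasi-likelihood test has no residual degrees of freedom, so genes with a mean count of at least 10 were compared by a two-sided exact binomial test given TMM effective library sizes (edgeR 4.0.16, R 4.3.3; 1.35 for library 2 over library 1), adjusted by Benjamini-Hochberg, with a prior count of 0.5 in ratios. On counts simulated for this comparison it recovered 97.7% of genes changed 0.4-fold and 100% of those changed 0.25-, 2.5- or 4-fold, and called 5 unchanged genes, of 15655 tested. The simulated counts varied by counting error alone, as the test assumes, and held no GC trend. They therefore check the calculation and do not give the rate of calls between real technical libraries. TPM ratios used a pseudocount of 0.1, and trends used lowess with a fraction of 0.2 (statsmodels 0.14.6, Python 3.11.15). DESeq2 1.42.0 size factors were an alternative.

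Named in full were the 6 SRSF and 8 HNRNP genes of highest mean TPM, the 2 highest and 2 lowest ratios of each family, and members whose shares shifted by 20 points or whose leading transcript differed. The members and lists were chosen with earlier results of these data known. The limits of 10 points for NMD and retained intron shares, the rule for the exons shown and the backgrounds of abundant genes were chosen after the data were seen. Counts and intervals cover counting error only, and no molecular identifiers are named.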

Additional observations from a re-analysis of the deposited data

How the results depend on the processing

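No paired analysis was possible because there is 1 group, and leaving out a library leaves no comparison. DESeq2 size factors and TMM over all genes, that TMM chosen after the data were seen, shift every ratio by a small constant, and minimum counts of 0 and 50 and a 1.5-fold threshold leave the ratios as they are, so that 0 direction changes under these carry no information. Direction changed for 13 members with the GC trend off, 10 by TPM, 5 with total counts, 2 with the length trend off and 1 by TPM over nuclear protein-coding genes. The count of members lower in library 2, 18 as reported, was 6 with total counts, 2 by the ratio of TPM and 3 with the GC trend taken off, and the count higher, 2 as reported, was 4 with total counts, 1 by TPM over nuclear protein-coding genes and 0 with the GC trend taken off. The SRSF median log2 ratio was -0.73 with total counts, -0.31 by TPM, -1.58 by TPM over nuclear protein-coding genes, -0.30 with the GC trend off, -1.97 with the length trend off and -1.42 with TMM over all genes. The HNRNP median was -0.37, -0.083, -1.35, -0.19 and -1.73 under the first 5 of these. Relative to all genes the members' median was -1.28 by TPM, -1.56 with the length trend off and -0.22 with the GC trend off. The median of all genes, 0.12 as reported, was 0.87 with total counts and 1.18 by TPM. Total counts shift all ratios by a constant. The cause of the changes by TPM and with the GC and length trends was not tested.

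With the GC trend off the direction changed for Hnrnph1 (0.12), Hnrnph3 (0.27), Srsf5 (0.44), Hnrnpk (0.34), Srsf7 (0.52), Srsf4 (-0.88), Srsf9 (-0.27), Hnrnpul1 (-0.49), Hnrnpf (0.42), Hnrnph2 (0.043), Hnrnpa1 (0.61), Hnrnpc (0.73) and Srsf3 (0.34). By the ratio of TPM it changed for Hnrnpa0 (0.20), Srsf6 (0.27), Hnrnpab (0.45), Srsf5 (0.69), Hnrnpf (0.74), Hnrnpa1 (0.50), Srsf12 (0.62), Hnrnpm (0.39), Hnrnpc (0.38) and Hnrnpul2 (0.54). With total counts it changed for Hnrnpab (0.00047), Hnrnpf (0.52), Hnrnpa1 (0.094), Hnrnpm (0.21) and Hnrnpul2 (0.12). TPM over nuclear protein-coding genes turned Hnrnpl (-0.60), and the length trend turned Hnrnpl (-0.60) and Srsf9 (-0.997).

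The summed level of the SRSF genes was 1221 in FPKM and 3442 in TPM over nuclear protein-coding genes, and that of the HNRNP genes 2660 and 7537. It ranged from 1407 to 1572 TPM for the SRSF genes and from 2990 to 3479 TPM for the HNRNP genes over the single libraries. By expected counts the leading transcript differed in 9 of 27 members and not 15, and the median share without a protein-coding label, over both libraries, was 16.8%. It was 32.7% over transcripts of equal length in both annotations. The counts of members with 20-point shifts, with more NMD and with less retained intron in library 2 held within 1.5 times under the share settings tried. With 1 library a side, depth limits Srsf12 (17 counts in library 2 and 22 in library 1) and low NMD transcripts such as those of Srsf4.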

Other observations

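NMD shares of the partner genes differed between the libraries in both directions. Of 20 partner genes with such a transcript, 3 had an NMD share 10 points or more higher in library 2 and 4 as much lower, near the 13.6% and 16.7% over all genes with such a transcript, so the counts are not read as a result about them. Syncrip, an hnRNP relative of Hnrnpr, had 29.0% of its TPM in NMD transcripts in library 2 and 0% in library 1, and Smg6, the endonuclease of NMD, had 27.0% in library 2 and 0% in library 1. Cirbp, a cold-inducible RNA-binding protein, had 11.5% in library 2 and 0% in library 1. In the other direction, Clk2, a kinase of SR proteins, had 12.5% in library 2 and 53.0% in library 1, and Smg5, an NMD factor, had 2.43% in library 2 and 31.9% in library 1. Clk1 had 16.3% in library 2 and 32.4% in library 1, and Tardbp, the gene of TDP-43, had 32.6% in library 2 and 48.7% in library 1. Rbmx held most of its TPM in an NMD transcript in both libraries, 53.7% in library 2 and 58.9% in library 1.

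Single-transcript listings at 0 recurred among abundant members. Srsf11-202, a coding form of Srsf11, took 16.8% of the gene from 906 counts in library 2 and was listed at 0 in library 1. Srsf5-202 took 11.9% from 939 counts in library 2 and was listed at 0 in library 1, while Srsf5-204 was listed at 0 in library 2 and took 10.3% from 836 counts in library 1. Srsf5-206, a processed transcript, took 20.9% in library 2 and 0.04% in library 1.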
